A study of Drosophila melanogaster with 9 samples.

Results

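The regions described here are the starts of long noncoding RNA genes in Drosophila, read from ATAC-seq peak lists of Kc167 cells. All genes of the dm6 annotation whose symbol opens with lncRNA: or asRNA: (antisense RNA) were taken, 2450 in all, and every one of them carries the noncoding RNA biotype. Genes that start within 1000 bp of a protein-coding transcript start were left out, which removed 724 and kept 1726, of which 1517 are lncRNA and 209 are asRNA genes. Around each of the 1726 starts a window of 100 bp on each side was scored in the peak list of each library, and a start was called open where a peak overlapped the window by 1 bp or more. The strength of an open start is given as the percentile of its peak's q-value among all peaks of the same library, so that 100 is the strongest peak of that library. The rule that chose the starts uses the annotation only and no peak.

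Kc167 is an embryonic cell line with properties of hemocytes, the blood cells of the fly, and ATAC-seq marks accessible DNA by where the Tn5 transposase can insert. The 9 libraries fall into 3 groups of 3. Cells of the same line were kept for 5 days after transfection with no RNA (mock), with 20 µg of double-stranded RNA against M1BP (M1BPKD) or with 12 µg of double-stranded RNA against Cp190 (Cp190KD). M1BP is a zinc finger protein that binds the core promoter element Motif 1, and CP190 is a partner of many insulator proteins. The mock cells received no control double-stranded RNA, and the study calls its ATAC-seq replicates biological without saying which step was repeated, so the p-values measure the spread between these libraries.

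Long noncoding RNAs are transcribed by RNA polymerase II but encode no long protein. Some act in cis at the locus where they are made, some hold protein complexes together, and some are precursors of small RNAs. The best known in flies are roX1 and roX2, which are parts of the male-specific lethal complex that raises transcription of the male X chromosome. Hsromega is a heat-inducible RNA that organises the nuclear omega speckles, flam is the source of Piwi-interacting RNAs that silence transposons in ovarian follicle cells, and yar lies between the body colour gene yellow and the proneural gene achaete. Kc167 cells are female, a state in which roX RNAs are not maintained in the animal.

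The windows of 5 starts that the results return to are printed here in the direction of transcription, with the annotated start as the middle base and 100 bases on either side. They were read from the RefSeq genome sequence of the dm6 build. Capitals mark matches to words that were searched on both strands, beginning with Motif 1, spelled GGTCACACT. The TATA box, where general transcription factors bind, was searched as TATAAA. The initiator, which overlaps the start of many fly genes, was searched as TCAGT. The GAGA element, bound by GAGA factor, was searched as GAGAG. The site of the AP-1 factors of the JNK pathway was searched as TGANTCA, and overlapping matches of a word run together in the capitals. The roX1 and yar windows are shown because their peaks were lost or gained in a knockdown, roX2 because it holds Motif 1, and Hsromega and marge because they were open in every library.
lncRNA:roX1 (chrX:3862597-3862797, minus strand): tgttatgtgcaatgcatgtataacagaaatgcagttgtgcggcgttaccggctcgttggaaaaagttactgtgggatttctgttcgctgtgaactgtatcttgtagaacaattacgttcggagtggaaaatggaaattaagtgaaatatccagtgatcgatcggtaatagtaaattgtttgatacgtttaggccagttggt
lncRNA:roX2 (chrX:11578965-11579165, plus strand): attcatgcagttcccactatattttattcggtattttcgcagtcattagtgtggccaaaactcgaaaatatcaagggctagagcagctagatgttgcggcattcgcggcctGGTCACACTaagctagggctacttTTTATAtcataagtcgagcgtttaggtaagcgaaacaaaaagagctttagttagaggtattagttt
lncRNA:yar (chrX:362299-362499, plus strand): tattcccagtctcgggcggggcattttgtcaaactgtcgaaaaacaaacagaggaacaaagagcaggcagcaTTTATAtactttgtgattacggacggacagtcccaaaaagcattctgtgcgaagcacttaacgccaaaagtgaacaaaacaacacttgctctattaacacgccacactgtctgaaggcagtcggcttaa
lncRNA:Hsromega (chr3R:21296027-21296227, plus strand): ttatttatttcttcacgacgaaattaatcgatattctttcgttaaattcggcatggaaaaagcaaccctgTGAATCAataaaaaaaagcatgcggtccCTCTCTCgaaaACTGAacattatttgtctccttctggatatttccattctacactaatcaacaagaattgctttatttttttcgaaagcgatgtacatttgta
lncRNA:marge (chr3L:14977531-14977731, minus strand): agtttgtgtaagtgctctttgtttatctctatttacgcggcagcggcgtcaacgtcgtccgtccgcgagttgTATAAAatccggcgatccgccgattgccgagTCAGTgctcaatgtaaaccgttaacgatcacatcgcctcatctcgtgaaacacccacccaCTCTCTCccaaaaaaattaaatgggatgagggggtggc
The roX1 window held no match. In roX2 Motif 1 was on the printed strand, 11 bases downstream of the start. The windows of yar and marge each held a TATA box match that began 28 bases upstream of the start. This match was on the printed strand in marge and on the other strand in yar. The marge window also held an initiator match 3 bases downstream. A match is a string of letters and was not tested as a binding site.

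The lists held between 13464 and 18959 peaks per library, and each M1BPKD list (13464 to 15232) was shorter than each mock list (17178 to 18959) and each Cp190KD list (18005 to 18625). The read depth behind the lists is unknown, since they give peaks and not totals. Of 7 hemocyte marker genes, 4 (srp, ush, Pxn and Hml) had an open start in all 9 libraries and 2 (NimC1 and He) in none, whereas 3 of 4 neuronal, 2 of 3 muscle and 2 of 3 fat body marker starts were open in none. The neuronal elav and the muscle gene wupA were open in all 9 libraries, and the fat body gene Adh in 7. The promoters of M1BP and Cp190 themselves were open in all 9 libraries, which does not measure their RNA or protein.

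Most lncRNA and asRNA starts were closed in Kc167 cells. No peak was found at 1477 of 1726 starts (85.6%) in any library, and 249 (14.4%) were open in at least 1. The open starts were split between those found in few libraries and those found in nearly all, with 46 open in a single library and 99 in all 9. In mock cells 159, 158 and 162 starts were open, which is 9.25% ± 0.121 (SD, n = 3). Protein-coding starts scored in the same way were open in 44.4% ± 0.179 (n = 3) of 13986 cases. The 3′ ends of the same noncoding genes, where these too lay over 1000 bp from a coding start (1527 genes), were open in 3.78% ± 0.0378 (n = 3), so that the starts were open more often than the ends in every library. The 724 noncoding genes left out for lying near a coding start were open in 27.4% ± 0.288 (n = 3).

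The asRNA starts were open more often than the lncRNA starts. In mock cells 13.2% ± 0.731 (n = 3) of the 209 asRNA starts and 8.70% ± 0.238 (n = 3) of the 1517 lncRNA starts were open, and the asRNA values (12.4 to 13.9%) were above the lncRNA values (8.50 to 8.97%) in each mock library. By position, 9.13% ± 0.0499 (n = 3) of the 1157 starts between genes, 9.78% ± 1.39 of the 150 inside a gene of the same strand and 9.41% ± 0.281 of the 411 inside a gene of the opposite strand were open. With distance from the nearest coding start the share went from 11.1% ± 0.428 (n = 3) for starts up to 2000 bp away through 8.50% ± 0.272 up to 5000 bp and 7.95% ± 0.410 up to 10000 bp to 9.85% ± 0.481 farther away, so that it did not fall steadily. On the small chromosome 4, 4 of 13 starts were open in every mock library.

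**Figure D1:**
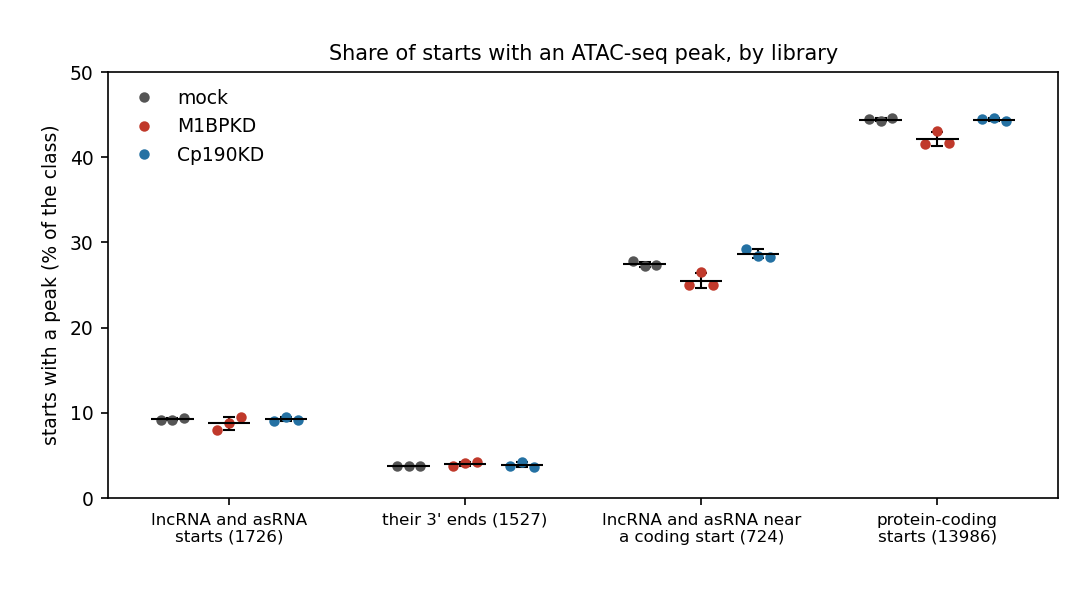
Share of starts with a peak (y axis, percent of the class, from 0) for the 1726 lncRNA and asRNA starts, their 3′ ends, the 724 noncoding genes near a coding start and the 13986 protein-coding starts. Points are libraries, and bars are the mean and SD of 3 libraries; the lncRNA and asRNA points lie between 8.0% and 9.50%, far below the protein-coding points at 41.6% to 44.6%.

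The open peaks were also placed differently from those at coding genes. In mock cells the summit lay inside the window at 35.9% ± 2.73 (n = 3) of open lncRNA and asRNA starts and at 56.4% ± 0.459 (n = 3) of open protein-coding starts. The median distance from start to summit was 143 bp ± 6.83 (n = 3) against 78.3 bp ± 2.08 (n = 3). The peaks themselves were narrower, with a median width of 452 bp ± 30.5 (n = 3) against 635 bp ± 15 (n = 3). A peak that also reached a protein-coding transcript start was found at 1.05% ± 0.737 (n = 3) of the open lncRNA and asRNA starts, a share that the distance required of these starts keeps low. The mock libraries' values for noncoding and coding starts did not overlap in the place of the summit, the distance or the width. Both classes were measured in the same 3 libraries, so the values are 3 pairs, for which a sign-flip permutation test cannot give a p under 0.25. No test was run, and the SD is the spread between libraries and not between starts.

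**Figure D2:**
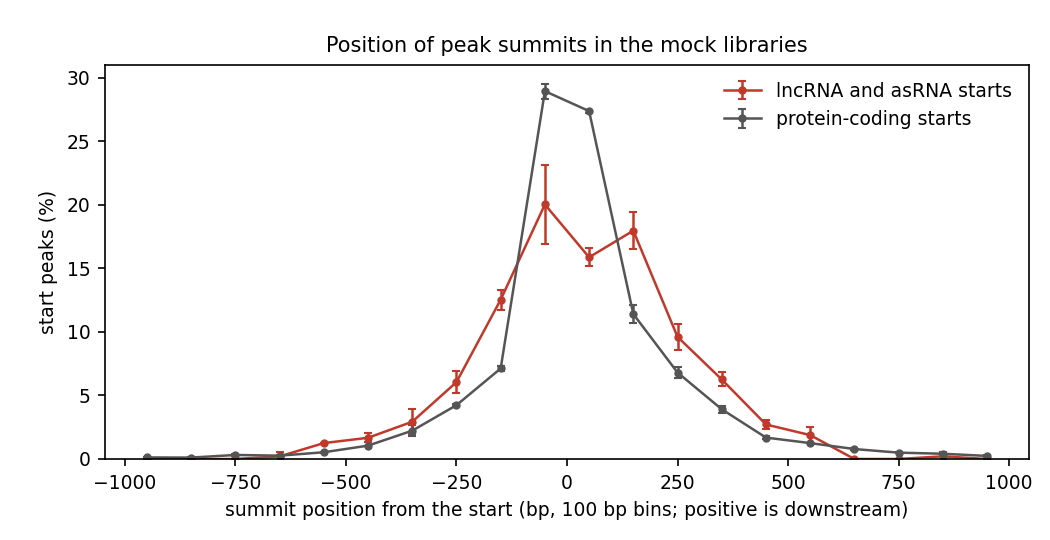
Position of the peak summit relative to the annotated start (x axis, bp, positive is downstream) as a percentage of open starts (y axis) in 100 bp bins, for lncRNA and asRNA starts and protein-coding starts; points and bars are the mean and SD of the 3 mock libraries. The protein-coding curve is highest in the 2 bins beside the start, and the noncoding curve is flatter, with 35.9% of summits in those 2 bins against 56.3%.

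Core promoter words were counted in the 1724 windows that could be read whole from the genome. Motif 1, the element M1BP binds, was in 4 windows (0.232%) against 5.28% of 13968 protein-coding windows and 4.15% of 18277 windows of all genes, and it was in 0 of the 131 windows open in all mock libraries. The DNA replication-related element (TATCGATA), another element of housekeeping promoters, was in 0.464% of the windows, against 6.20% for all genes. The TATA box word was in 24.2% against 27.7% and the initiator in 35.1% against 41.5%. The GAGA element, the binding word of GAGA factor, was in 20.8% of the windows against 22.2% for all genes, in 35.9% of the 131 open windows and in 19.1% of the 1475 windows that were open in no library. The AP-1 site was in 4.70% against 3.91%. In the 131 open windows and the 1475 open in no library, the DNA replication-related element was in 2.29% (3 windows) and 0.339%. The TATA box word was in 17.6% and 25.2%, the initiator in 32.1% and 35.3% and the AP-1 site in 3.82% and 4.54%. None of these splits was given a test. The 4 starts with Motif 1 were those of roX2, asRNA:CR46138, lncRNA:CR44560 and lncRNA:CR45276, and only roX2 was open in any library, in Cp190KD replicate 3.

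The 10 strongest starts in mock cells lay near the top of the peak lists. lncRNA:CR44904, a 357 bp gene 3274 bp from the start of ham, stood at percentiles 99.9, 99.9 and 99.9 in mock, 99.7, 99.8 and 99.8 in M1BPKD and 99.8, 99.9 and 99.9 in Cp190KD. lncRNA:CR34335, which lies inside DIP-alpha on the same strand, followed at 99.8, 99.5 and 99.7 in mock, with its summit 5 to 13 bp upstream of the start. lncRNA:marge was at 99.5, 99.4 and 99.2 in mock, 97.5, 98.8 and 98.4 in M1BPKD and 99.1, 99.5 and 99.6 in Cp190KD, with a fold enrichment over background of 11.2 to 12.2 in mock, and its M1BPKD values were all below its mock values, with a mean change of -1.12. The peak at asRNA:CR45009 was at 98.9, 99.1 and 98.6 in mock and at 93.3, 94.1 and 92.6 in M1BPKD, where all 3 values were lower. The others were lncRNA:CR42719, CR44867, CR45565, CR46454, CR43334 and CR45820, with mock means from 98.2 down to 95.7. lncRNA:CR45565 was the one among the 10 that lost its start peak in a knockdown, as described further on.

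Of the 37 genes with a name rather than a number, 28 were closed in all 9 libraries, and among the 14 genes named TS with a number 13 were closed. The noncoding RNAs of the bithorax complex, bxd, iab4 and iab8, which lie among the Hox genes Ubx, abd-A and Abd-B, had no peak, the nearest lying at least 2250 bp from the iab4 window, 8716 bp from the bxd window and 3779 bp from the iab8 window. The same was true of let7C, a precursor of the microRNA let-7 (nearest peak 410 to 872 bp away). It was also true of cherub, an RNA of neural stem cell tumours (9540 to 11350 bp), and acal, a regulator of JNK signalling in dorsal closure (976 to 3605 bp). flam was open in mock replicate 2 at percentile 63.7 and in Cp190KD replicates 2 and 3 at 73.9 and 71.0. In the other 6 libraries the nearest peak ended 36 to 44 bp short of its window, so that these calls rest on the edge of a peak. lncRNA:mimi was open in 1 library.

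Hsromega was open in all 9 libraries under a broad peak of 2068 to 2363 bp with its summit 341 to 391 bp downstream of the start. Its percentiles were 86.0, 76.6 and 81.5 in mock, 93.5, 90.5 and 94.4 in M1BPKD and 80.6, 83.1 and 83.7 in Cp190KD. All 3 M1BPKD values were above all 3 mock values, with a mean difference of 11.4, while the Cp190KD and mock values overlapped. Fold enrichment at the same peak was 4.02 to 4.94 in mock and 6.45 to 8.50 in M1BPKD, but the median fold enrichment of the whole list was also higher in M1BPKD (3.12 to 3.85) than in mock (2.62 to 2.65), which is why strength is compared here by percentile. lncRNA:TS27 was open throughout at 61.5, 55.3 and 64.2 in mock, 45.5, 61.2 and 49.5 in M1BPKD and 62.5, 70.0 and 69.1 in Cp190KD, with overlapping groups.

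In M1BPKD, replicates 1 and 2 had a lower share of open lncRNA and asRNA starts than every mock library, and replicate 3 a higher one. The share was 8.0%, 8.81% and 9.50% in M1BPKD against 9.21%, 9.15% and 9.39% in mock, a difference of -0.483 percentage points (exact permutation test, two-sided, p = 0.4, n = 3 per group, as for all tests below). The groups overlapped through M1BPKD replicate 3. On chromosome arm 2L that library had 45 of 449 starts open, against 31 and 34 in M1BPKD replicates 1 and 2 and 32 in each mock library. The size of the difference in shares depended on the rule. It was -2.20 with 500 bp on each side of the start (exact permutation p = 0.1), -0.850 without M1BPKD replicate 3 (exact permutation p = 0.1) and -0.0966 without M1BPKD replicate 1. It turned positive where equally many peaks were taken from each library (0.579) or the summit had to lie in the window (0.154). Among 16 subclasses by gene type, position, distance and chromosome, 3 had M1BPKD shares below all mock shares and 0 above. These were the asRNA starts (13.4%, 13.9% and 12.4% in mock and 8.61%, 11.0% and 11.5% in M1BPKD), the starts inside a gene of the opposite strand (9.25 to 9.73% and 7.79 to 8.76%) and those on chromosome arm 3L (10.7 to 12.2% and 8.54 to 9.76%). In Cp190KD 1 subclass was lower and 1 higher without overlap with mock. The lower one was again chromosome arm 3L (9.02 to 10.2%), so the fall there was not particular to M1BPKD. Both comparisons use the same mock libraries. The higher one was arm 3R, at 8.11% ± 0.426 (n = 3) in Cp190KD and 6.96% ± 0.375 (n = 3) in mock. The subclasses share members, were compared after the values were seen and were given no test. At protein-coding starts the share was 42.1% ± 0.819 (n = 3) in M1BPKD against 44.4% ± 0.179 in mock. The difference was -2.27 points with no overlap (exact permutation p = 0.1, the smallest that 3 against 3 allows). In points, the change at noncoding starts was 1.79 less negative than at coding starts (exact permutation p = 0.1), a difference of changes that was 0.762 with the start base alone (exact permutation p = 0.5) and -0.718 with the summit required in the window. In proportion to mock no difference was seen, since the M1BPKD share was 0.948 times the mock share at noncoding and 0.949 times at coding starts. The ratio of the noncoding to the coding share was 0.208 ± 0.0181 (n = 3) in M1BPKD and 0.208 ± 0.00201 (n = 3) in mock (exact permutation p = 1, added after the values were seen).

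Peak strength was compared by the median over open starts. The median percentile of open lncRNA and asRNA starts was 65.7, 64.8 and 63.9 in mock and 67.1, 65.5 and 61.3 in M1BPKD, a difference of -0.166 with overlapping groups (exact permutation p = 0.9). This value depended on the ranking, since it was 5.07 with equally many peaks from each library (exact permutation p = 0.1) and -4.44 when peaks were ranked by fold enrichment (exact permutation p = 0.1). At protein-coding starts it was 75.1, 74.0 and 74.9 in mock and 64.1, 67.9 and 67.2 in M1BPKD, a difference of -8.27 with no overlap (exact permutation p = 0.1). The difference between these changes was 8.10 (exact permutation p = 0.1), a test added after the values were seen, and 2.04 by fold enrichment (exact permutation p = 0.2). The M1BPKD lists were shorter than the mock lists, and a percentile does not remove list length. How much of the coding difference goes with list length was not tested.

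The contrast with coding starts also depended on where the summit lay. Where a peak counted only if its summit was inside the window, 52 to 62 lncRNA and asRNA starts were open per mock library and 55 to 64 per M1BPKD library. Their median percentile was 65.1, 64.6 and 61.0 in mock and 48.3, 52.9 and 49.2 in M1BPKD, a difference of -13.4 with no overlap (exact permutation p = 0.1). The protein-coding medians under the same rule were 76.0 ± 0.689 (n = 3) in mock and 64.6 ± 3.15 (n = 3) in M1BPKD, and the noncoding change was then 2.06 more negative than the coding one (exact permutation p = 0.3). In Cp190KD the noncoding median under this rule was 64.9 ± 0.530 (n = 3).

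**Figure D3:**
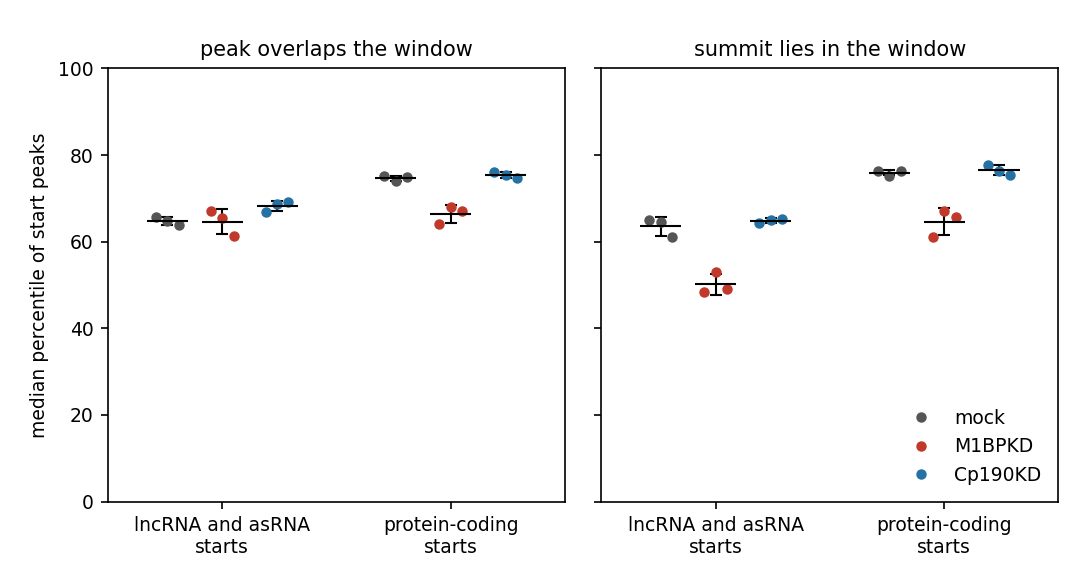
Median percentile of open starts per library (y axis, percentile of q-value within the library, from 0 to 100) for lncRNA and asRNA starts and protein-coding starts, with any overlapping peak counted (left) or with the summit required in the window (right); points are libraries, and bars are the mean and SD of 3. The M1BPKD points of the noncoding starts lie among the mock points on the left (61.3 to 67.1) and below them on the right (48.3 to 52.9).

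Start by start, 106 lncRNA and asRNA starts were open in all 6 mock and M1BPKD libraries. All 3 M1BPKD percentiles were below all 3 mock percentiles at 43 of them (40.6%), against 56.5% of all gene starts tested in this way. All 3 were above at 31 (29.2%), against 11.6% of all gene starts. The balance turned where equally many peaks were taken from each library, with 30 lower and 38 higher, and at a −log10 q of at least 20, with 19 lower and 34 higher. These counts were not made for all gene starts, so whether the turn is particular to noncoding starts was not tested. Among the 33 whose summit lay in the window in all 3 mock libraries, 19 (57.6%) were lower and 4 (12.1%) higher, with a median change of -8.16. Among the 60 whose summit lay in the window in no mock library, 20 (33.3%) were lower and 21 (35.0%) higher, with a median change of 0.171. This split by summit was made after the values were seen and was given no test. It was not made for all gene starts, so whether it is particular to noncoding starts was not tested.

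The deepest falls in M1BPKD were at starts of middle to high strength, and weak starts leave no room for such a fall in percentile. lncRNA:CR43264 is a 318 bp gene on the X chromosome. Its window also holds the start of another annotated entry, tRNA:Glu-CTC-6-1Psi, so that the peak cannot be given to one of them. Its percentiles were 69.5, 75.8 and 69.5 in mock, 24.7, 28.2 and 20.7 in M1BPKD and 72.9, 73.2 and 66.4 in Cp190KD, and its fold enrichment was 4.15 to 4.72 in mock and 2.32 to 2.95 in M1BPKD. lncRNA:CR45471, 1464 bp from the start of the cohesin loader gene Nipped-B and with a DNA replication-related element in its window, went from 93.1, 95.3 and 94.8 to 43.3, 61.6 and 46.6. lncRNA:CR45588 went from 55.1, 60.3 and 59.4 to 13.6, 25.2 and 35.2 in M1BPKD and was at 66.6, 71.4 and 71.5 in Cp190KD, above mock in all 3. lncRNA:CR45500 on the X went from 82.3, 81.5 and 72.3 to 45.5, 37.5 and 53.6. At this start the peak also narrowed, from 1385 to 1585 bp in mock to 305 to 536 bp in M1BPKD. lncRNA:CR42746, antisense within bun, went from 88.4, 81.6 and 85.0 to 43.6, 58.7 and 54.6. These 5 were chosen as the largest falls among starts without overlap, so the distance between their groups follows from the choice.

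The highest rises in M1BPKD were smaller than the deepest falls, though a strong start has little room to rise in percentile. lncRNA:CR44145, 2546 bp from the start of Vha100-5, was at 45.4, 49.4 and 49.5 in mock and at 73.4, 66.5 and 76.9 in M1BPKD. In Cp190KD the same start was at 9.25, 22.3 and 15.9, below all mock values, so that the knockdown groups lay on opposite sides of the mock group they share. lncRNA:CR44619 on the X rose from 74.7, 67.3 and 66.5 to 89.1, 89.1 and 93.1 without overlap. lncRNA:CR45393, 14114 bp from the start of the ecdysone-induced gene Eip75B, stood at 74.6, 67.0 and 72.6 in mock and 92.8, 86.0 and 91.4 in M1BPKD. lncRNA:CR44868, inside beat-Ib on the opposite strand, was at 75.1, 71.7 and 78.0 in mock and 92.9, 88.5 and 93.9 in M1BPKD. lncRNA:CR32636 was at 46.4, 38.6 and 39.3 in mock and 56.6, 55.8 and 60.9 in M1BPKD. In all of these except CR44145, the Cp190KD values overlapped the mock values.

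**Figure D4:**
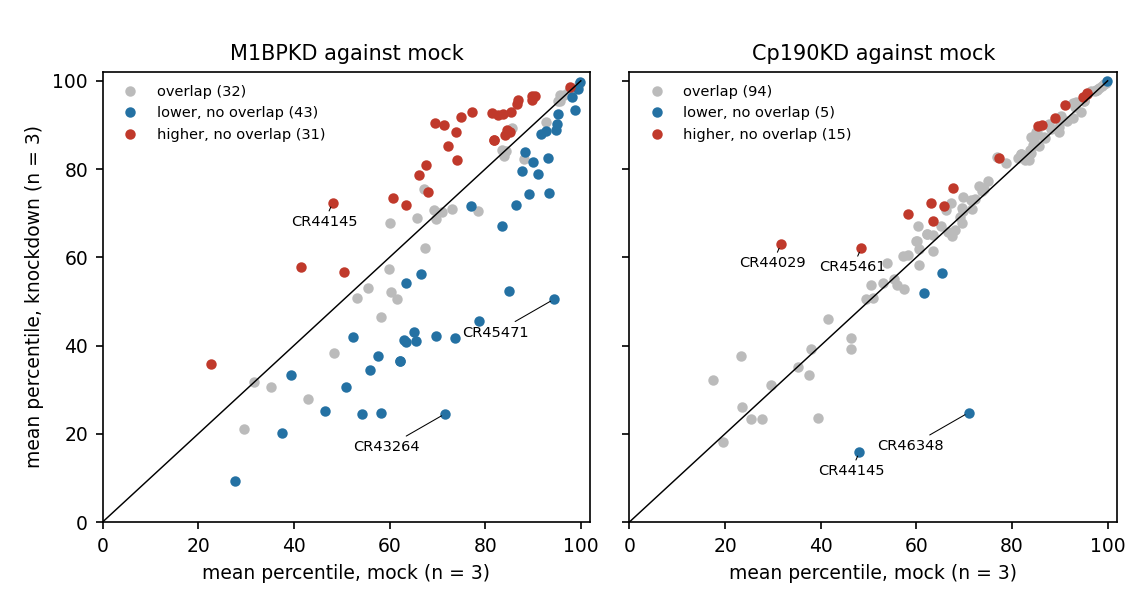
Mean percentile of each start in mock (x axis) and in the knockdown (y axis), each over 3 libraries, for the 106 (M1BPKD, left) and 114 (Cp190KD, right) lncRNA and asRNA starts open in all 6 libraries compared; the line marks equal values and colours mark starts whose knockdown values all lie below or above the mock values. Left, 43 starts are lower and 31 higher. The balance turns to 30 and 38 with equally many peaks from each library, a count not made for all gene starts. Right, 5 are lower and 15 higher.

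A start was called lost where all 3 mock libraries had a peak and no knockdown library did, and gained where the reverse held. In M1BPKD 10 of the 131 starts open in all mock libraries were lost (7.63%), against 5.33% of all gene starts. Of 1533 starts open in no mock library 7 were gained (0.457%), against 1.49% of all gene starts. The lost starts were mostly weak ones. The means in mock ran from 4.42 to 53.9 at 9 of the 10, including asRNA:CR45195, antisense within the sorbitol dehydrogenase gene Sodh2, at 48.9, 46.3 and 52.9, and lncRNA:CR45659 at 54.8, 50.3 and 56.6. At both the nearest M1BPKD peak lay over 1000 bp away, at 1086 to 1200 bp and 1544 to 1568 bp. asRNA:CR44704, asRNA:CR45185, lncRNA:CR44281, lncRNA:CR44957 and lncRNA:CR45159 were lost from mock means of 25.5, 4.42, 23.3, 19.6 and 27.9.

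The exception was lncRNA:CR45565, at 97.8, 96.8 and 97.9 in mock and at a mean of 97.9 ± 0.0842 (n = 3) in Cp190KD. Its peak had a summit 474 to 477 bp downstream in mock, and in M1BPKD the nearest peak ended 15 to 40 bp from the window, so that a peak was still called beside the window. With a window of 500 bp on each side this start was not lost. Of the 10 lost starts 3 had an M1BPKD peak within 100 bp of the window in at least 1 library, and 6 had none within 500 bp in any.

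yar was the clearest gain in M1BPKD. It had no peak in the mock libraries, where the nearest lay 560 to 589 bp from the window, nor in Cp190KD, where it lay 600 to 622 bp away. In M1BPKD it had a peak of 256 to 298 bp at percentiles 56.1, 45.9 and 50.6, with a fold enrichment of 3.56 to 4.87 and the summit between 35 bp upstream and 9 bp downstream of the start. The gain was found under all 8 alternative rules of counting that apply to single starts. Of the 27 calls of a lost or gained start in both knockdowns, those of yar and roX1 were the 2 kept under every alternative, and the others were kept under 1 to 7 of them. lncRNA:CR44281 was kept under 1, lncRNA:CR45159 and asRNA:CR44083 under 2 and asRNA:CR45185 under 3. lncRNA:CR43604, a 201 bp gene inside dachs, was gained at 66.0, 64.9 and 68.0 with the summit 35 to 43 bp downstream. The remaining 5 had peaks whose summit lay outside the window in at least 1 M1BPKD library. lncRNA:CR45628 was gained at 86.9, 80.6 and 86.1 with a summit at -907 to -848 bp from the start. lncRNA:CR42874 was gained at 66.2, 63.3 and 73.6, while a mock peak lay 28 to 32 bp from its window. asRNA:CR44375, antisense within Cdk4, was gained at 84.8, 71.4 and 88.6 and was open in 2 Cp190KD libraries. asRNA:CR44872 and lncRNA:CR44218 were gained at means of 36.2 and 52.6.

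**Figure D5:**
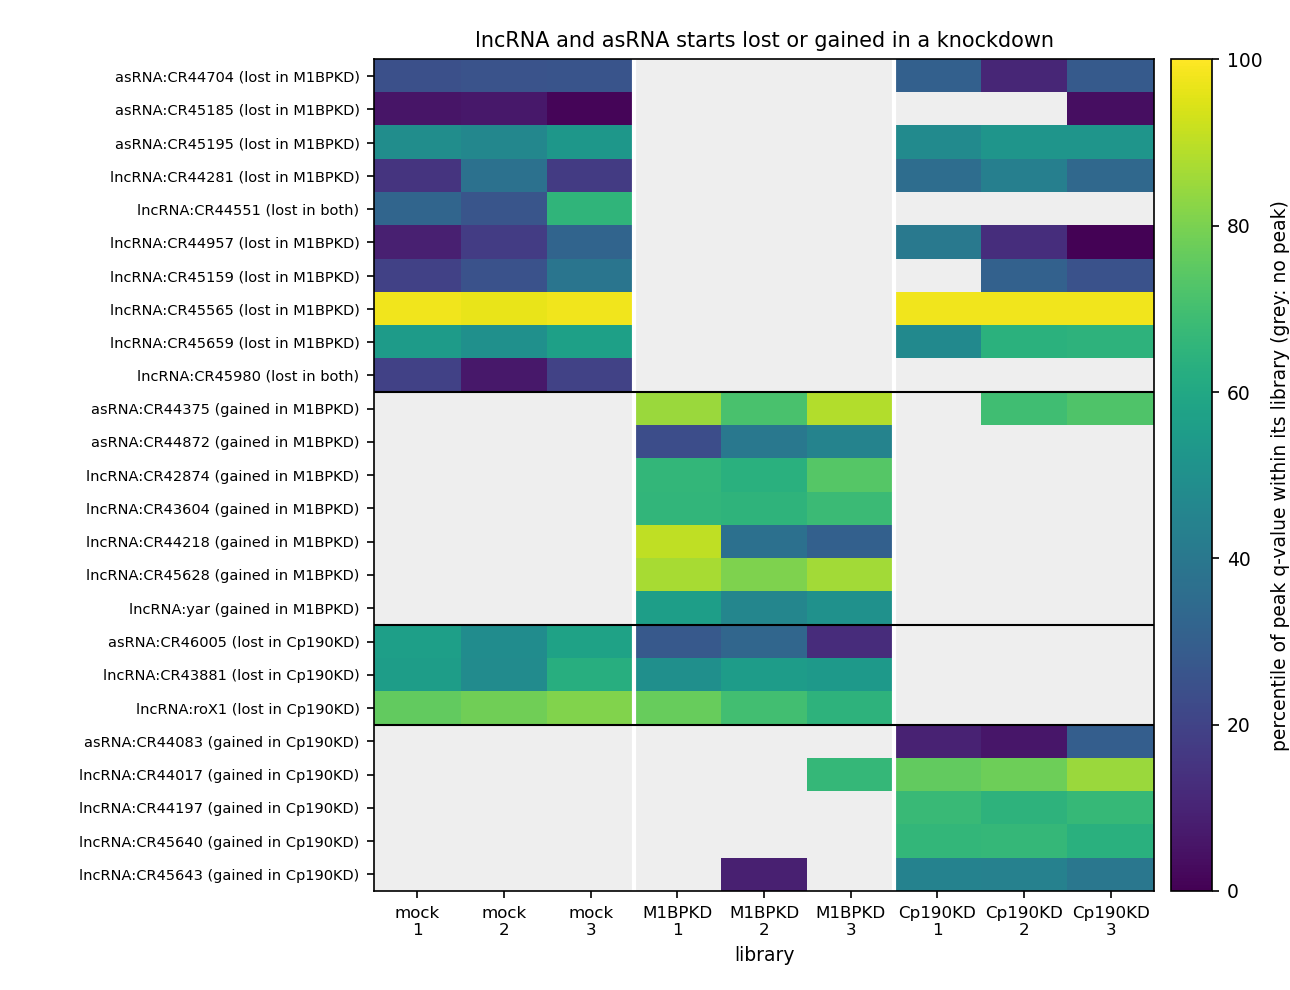
Percentile of the start peak (colour) in each of the 9 libraries (columns) for the lncRNA and asRNA starts called lost or gained in a knockdown (rows, with the call in brackets); grey marks a library with no peak at the start. roX1 has peaks at percentiles 64.8 to 81.2 in the 6 mock and M1BPKD libraries and none in Cp190KD, and yar has peaks in the M1BPKD libraries only.

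The knockdown of Cp190 left the share and most single starts in place. The share of open lncRNA and asRNA starts was 9.04%, 9.50% and 9.15%, a difference from mock of -0.0193 points (exact permutation p = 1), and the protein-coding share differed by 0.00715 points (exact permutation p = 1). The difference between these changes was -0.0265 (exact permutation p = 0.9). The median percentile of open noncoding starts was 66.9, 68.8 and 69.2, above all mock values by 3.48 on average (exact permutation p = 0.1), and the protein-coding median was 0.685 higher, with overlapping groups (exact permutation p = 0.3). The noncoding difference was -0.805 when ranked by fold enrichment instead of q-value and 0.0437 with 500 bp on each side. Of 114 starts open in all 6 libraries, 5 (4.39%) were lower without overlap, against 5.51% of all gene starts, and 15 (13.2%) were higher, against 10.7%.

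roX1 lost its start peak in Cp190KD. Its percentiles were 76.1, 78.5 and 81.2 in mock and 76.7, 69.9 and 64.8 in M1BPKD, with the summit 53 to 56 bp upstream of the start and a fold enrichment of 4.73 to 5.24 in mock and 4.56 to 7.41 in M1BPKD. None of the Cp190KD libraries had a peak there, and the nearest lay 5772 to 5880 bp from the window, farther than the gene is long (5468 bp). The loss was found under all 8 alternative rules. Its mock mean, 78.6, was the highest of the 5 starts lost in Cp190KD. Its partner roX2 was closed in mock and M1BPKD and in 2 Cp190KD libraries, and open in Cp190KD replicate 3 at percentile 54.1 under a peak of 154 bp with the summit 52 bp upstream.

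In Cp190KD 5 of the 131 starts were lost (3.82%), against 1.03% of all gene starts, and 5 of 1533 were gained (0.326%), against 0.345%. Beside roX1 the lost starts were lncRNA:CR43881 inside RhoGEF64C, asRNA:CR46005, which is antisense within l(3)mbn, lncRNA:CR44551 and lncRNA:CR45980. lncRNA:CR43881 was at 55.6, 48.2 and 62.8 in mock and 49.7, 55.3 and 54.1 in M1BPKD, with a Cp190KD peak 136 to 157 bp from its window and a summit 309 to 318 bp upstream in mock. asRNA:CR46005 was at 56.4, 48.7 and 57.5 in mock and 27.9, 33.0 and 12.6 in M1BPKD. lncRNA:CR44551 (32.8, 26.5 and 65.5 in mock) and lncRNA:CR45980 (19.3, 6.36 and 19.9) were the 2 starts lost in both knockdowns. In each knockdown these calls were kept under 5 and 4 of the 8 alternative rules. lncRNA:CR44551 was not kept with 500 bp on each side, and lncRNA:CR45980 not at a −log10 q of at least 10. No start was gained in both knockdowns. The gains were at lncRNA:CR44017 inside gpp (76.1, 78.1 and 85.0), lncRNA:CR44197 (67.9, 64.6 and 67.2), lncRNA:CR45640 (66.1, 66.5 and 63.3), lncRNA:CR45643 (44.4, 43.8 and 39.5) and asRNA:CR44083 (9.75, 6.09 and 30.0). At 3 of these a mock peak lay within 100 bp of the window, and the summit lay in the window in all 3 libraries at 1, lncRNA:CR45643.

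Among starts open throughout, lncRNA:CR46348 showed the deepest fall in Cp190KD. It was at 72.7, 71.6 and 68.5 in mock, 68.0, 68.0 and 75.1 in M1BPKD and 9.25, 41.1 and 24 in Cp190KD, with a fold enrichment of 4.05 to 4.33 in mock and 1.96 to 2.66 in Cp190KD. The other starts that were lower without overlap were lncRNA:CR44145, given above, lncRNA:CR44997, lncRNA:CR44885 and lncRNA:CR44904, with mean changes of -9.71, -9.10 and -0.0495 in the last 3. The highest rise was at asRNA:CR44029 on chromosome 4, antisense within unc-13, from 21.0, 52.7 and 21.3 to 64.0, 67.5 and 57.3. lncRNA:CR45461, lncRNA:CR45588, lncRNA:CR45047 and lncRNA:CR44661 rose by means of 13.6, 11.6, 9.34 and 8.17 without overlap. At lncRNA:CR45047 the M1BPKD values moved the other way, from 63.1, 60.2 and 65.7 in mock to 40.0, 39.0 and 44.8. They also did so at lncRNA:CR45588 and lncRNA:CR44145, given above. At lncRNA:CR44885, lncRNA:CR44904 and lncRNA:CR44661 the M1BPKD values moved in the same direction as in Cp190KD without overlap with mock. The mean M1BPKD changes at these were -24.4, -0.0991 and 13.2.

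asRNA:bsAS, an antisense transcript of the blistered locus, is a further named gene. It was at 52.4, 56.3 and 57.0 in mock and 50.7, 58.7 and 55.7 in Cp190KD, whereas M1BPKD replicate 1 had no peak within 4136 bp of the window and replicates 2 and 3 stood at 19.2 and 7.52. Since 1 library lacked the peak and 2 kept it, it was counted neither as lost nor as lower.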

How the data were processed

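ATAC-seq peak lists of 9 Kc167 libraries (mock, M1BPKD and Cp190KD, 3 each) were analysed. The study's methods and the submitters' processing notes name cutadapt 1.8.1, Bowtie2 2.3.5, SAMtools 1.9 and Picard before peak calling with MACS2 2.2.5 on each library at a q threshold of 0.0001, on the dm6 build. A shift of reads for the Tn5 cut is not given in the sources used here. The deposited narrowPeak columns hold coordinates, an integer score, the fold enrichment ratio at the summit, −log10 of the p-value and −log10 of the q-value, and the authors gave the lists without a common normalization. A percentile removes the scale of a list but not its length.

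Genes came from Ensembl release 115 (dm6), and 0 of 153300 peaks ended beyond a chromosome. Where several peaks overlapped a window, the strongest was taken. The authors' lists were read with Python 3.11.15, numpy 2.4.6, pandas 2.3.3 and scipy 1.17.1. Groups were compared over libraries by the exact permutation test over the 20 assignments of labels, two-sided, and single starts by overlap of values, with no adjustment since the 2 comparisons share their mock libraries and no p reaches below 0.1. The steps were tested on simulated lists.

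Genes named in the text are those with a name in place of a number, all lost or gained starts up to 10 per class, the 10 strongest in mock, the 5 largest falls and rises without overlap per comparison and all starts with Motif 1. The members, lists and rules were chosen with earlier results of these data known. Alternatives changed the window, the q threshold, the number of peaks, the place of the summit, the distance from coding starts, the ranking and the libraries.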

Additional observations from a re-analysis of the deposited data

How the results depend on the processing

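Each comparison of lncRNA and asRNA starts was repeated under 9 other settings, without each library in turn and in a paired form. Of 240 such values 189 kept their direction or stayed within 1.5 times the count reported, 29 counts moved further and 22 differences changed sign. The cause was not tested. Counts of lost, gained, lower and higher starts under these settings were not made for all gene starts. The peak lists give no read totals, so a start without a peak may lie just under the caller's threshold.

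With 500 bp on each side of the start, 29 starts were lost and 16 gained in M1BPKD, 76 were lower and 48 higher, and in Cp190KD 14 were lower and 30 higher, while in Cp190KD the change of the noncoding share minus that of the coding share was 0.0151 and that of the median percentiles was -0.807. With the start base alone, the M1BPKD change of the median percentile was 3.45 and 2 starts were gained in Cp190KD. At a −log10 q of at least 10, that M1BPKD change was 1.78, the Cp190KD change of the share was 0.0579, and 3 starts were lower in Cp190KD. At a −log10 q of at least 20 these were 6.89, 0.135 and 3, and 19 starts were lower in M1BPKD. With the 13464 strongest peaks of each library, the change of the share was 0.579 in M1BPKD and 0.0386 in Cp190KD, the M1BPKD change of the median percentile was 5.07, 30 starts were lower and 38 higher and 4 were lost in M1BPKD and 3 were lower in Cp190KD. With the summit in the window, the M1BPKD change of the share was 0.154, the differences from the coding changes were -0.718 for the share and -2.06 for the median, 4 starts were lost, 15 lower and 2 higher in M1BPKD, and 3 were lost, 1 gained, 1 lower and 2 higher in Cp190KD. For starts 2000 bp or more from a coding start, 4 were gained in M1BPKD. Ranked by fold enrichment, the M1BPKD change of the median was -4.44 (exact permutation p = 0.1) and its difference from the coding change 2.04 (p = 0.2), 20 starts were higher in M1BPKD, and the Cp190KD change of the median was -0.805 and its difference from the coding change -2.61. Leaving out peaks that also cover a coding start, which was done for the noncoding starts only, changed no sign and no count by over 1.5 times.

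Leaving out 1 library at a time, the M1BPKD change of the share ran from -0.850 to -0.0966, the M1BPKD change of the median percentile ran from -1.40 (without M1BPKD replicate 1) to 1.49 (without M1BPKD replicate 3) and the gains in M1BPKD from 7 to 12 (without M1BPKD replicate 1). In Cp190KD the change of the share ran from -0.154 to 0.0772 and its difference from the coding change from -0.0927 to 0.0796. The losses in Cp190KD ran from 5 to 8 (without mock replicate 3), the lower starts from 6 to 10 and the higher starts from 18 to 32. The highest counts of lower and higher starts were both without Cp190KD replicate 1. With a library left out, fewer libraries must meet the rules for lost, gained, lower and higher starts. These counts can then only stay the same or rise.

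No pairing of the libraries by replicate number was seen, although the labels do not settle it and these correlations cannot exclude it. Correlations of the deviations of same-numbered libraries from their group means were 0.00775, 0.0232 and -0.0196 for M1BPKD and mock and -0.144, -0.0508 and 0.0109 for Cp190KD and mock. With the number as a replicate block, the changes of the share were -0.483 (exact sign-flip permutation p = 0.5) in M1BPKD and -0.0193 (p = 1) in Cp190KD, and the smallest p that 3 pairs allow is 0.25. The counts of starts were not fitted with a block, since they come from no test.

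The results that compared the changes of median percentiles between noncoding and coding starts, the ratio of the noncoding to the coding share, the subclasses, and the alternatives for counts of lower and higher starts, were added after the data were seen.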
